A study of Homo sapiens with 6 samples.

Results

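Gamma-secretase is a protease that lies in the membrane and cuts the stumps of transmembrane proteins after their outer part has been removed. One complex holds a presenilin, which carries the catalytic aspartates, nicastrin (NCSTN), an APH-1 protein (APH1A or its paralog APH1B) and PEN-2 (PSENEN). Its best known substrates are the Notch receptors, whose intracellular part is released by the cut and then acts on transcription in the nucleus.

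The 5 subunit genes described here are APH1A, APH1B, PSEN2, NCSTN and PSENEN. They were taken as the rows of the count table whose Ensembl identifier belongs to one of these symbols. All 5 were found among 58825 gene identifiers, and all 5 passed the filter on low counts that left 16208 genes to test. RNA was taken from SKOV3, an established human ovarian cancer cell line, 48 h after transient transfection. NC libraries came from cells given a negative control siRNA (n = 3) and si-EIF5A2 libraries from cells given an siRNA against EIF5A2, a translation factor gene (n = 3). The labels give no further allele or agent for either group. Transfection was transient, a single siRNA duplex was used for EIF5A2, and nothing in the labels says whether the 3 samples of a group came from separate cultures, so each p-value measures only the spread between these samples.

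Counts summed to between 46900204 and 74142267 per library. These are estimated counts whose low values lie at steps of 3.81, so the totals exceed the number of fragments. EIF5A2 fell from 29.1 ± 1.15 CPM (counts scaled to a library total of 1e6; SD, n = 3) in NC to 3.69 ± 0.817 in si-EIF5A2 (adjusted p = 1.6e-05 with edgeR). Of 8 epithelial and ovarian markers all passed the filter, with EPCAM low at 1.55 CPM in NC. KRT7, KRT8 and PAX8 were called lower (37.5%, beside 13.6% of all genes tested). The summed level of the list was 1508 to 1675 CPM in NC and 958 to 1170 CPM in si-EIF5A2. Of 8 markers of leukocytes, endothelium and fibroblasts, PTPRC and CD3E had no count in any library. The list summed to between 42.8 and 60.8 CPM per NC library and between 29.8 and 58.7 CPM per si-EIF5A2 library. Most of each sum came from the leukocyte marker CD68, with a mean of 46.3 ± 9.57 CPM for NC against 39.1 ± 14.3 for si-EIF5A2. edgeR called 0 of the 4 listed markers that were tested, beside 24.6% of all genes tested. Of these 4, 1 had an unadjusted p under 0.05 and DESeq2 called 1. The part of these marker levels in the results was not tested.

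The siRNA shares a long run of letters with APH1B and a seed match with NCSTN. The 19 bases of its antisense strand before the overhang were compared with all GENCODE 29 transcripts (GRCh38). The sites are shown because they place the intended target beside the stretches shared by APH1B and NCSTN. Each line gives 25 bases of the transcript, with capitals for the bases inside the run that pairs with the antisense strand, which is the seed match in NCSTN.
EIF5A2: tgaGGATCTTAAACTGCCAGAAggt
APH1B: aataGATCTTAAACTGCCAaatctc
NCSTN: tccttctctactcaTGCCAGAtttt
The EIF5A2 site lies at chr3:170894346-170894364 on the minus strand, in exon 4 of the 5 exons of EIF5A2-201, inside the coding sequence, and pairs with all 19 bases. The APH1B site lies at chr15:63306841-63306855 on the plus strand, in the 3′ UTR within exon 6 of 6 of APH1B-201. Its run of 15 bases pairs with positions 4 to 18 of the antisense strand, counted from the 5′ end, and 16 of the 19 positions pair in all. The NCSTN site lies at chr1:160358505-160358511 on the plus strand, in the 3′ UTR within exon 17 of 17 of NCSTN-201. It matches the siRNA seed, positions 2 to 8 of the antisense strand, and 10 of the 19 positions pair.

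These matches differ in how common they are. Among 16176 tested genes with a transcript sequence, 2 held a run of at least 15 bases (0.0124%), and these were EIF5A2 and APH1B. The limit of 15 is the length of the APH1B run itself. The partial match of APH1B was known when the subunit genes were chosen, so its rarity restates that choice. The longest runs were 9 bases in APH1A and PSENEN, 8 in PSEN2 and 7 in NCSTN, and 18.9% of the tested genes held a run of at least 9. APH1B held no full seed match in a 3′ UTR, nor did APH1A, PSEN2 or PSENEN. A seed match of the NCSTN kind was present in 2554 of 12851 tested genes with a 3′ UTR (19.9%). Of these 2554 genes 590 were called lower (23.1%) and 227 higher (8.89%), and 168 had a log2 fold change as low as that of NCSTN or lower (6.58%). Over all genes tested 13.6% were called lower and 11.1% higher, and 5.24% fell more than NCSTN. All genes tested include those without a 3′ UTR and those with the seed match, so the 2 sets are not fully alike. The median log2 fold change was -0.17 for the genes with the seed match and -0.01 for all genes tested, a difference that was not tested. For a strand complementary to the antisense strand, the longest run in any of the 5 subunit genes was 8 bases. A match describes shared letters, and cutting or repression at these sites was not tested.

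The comparison of si-EIF5A2 with NC asks which transcripts differed once EIF5A2 had been silenced. A gene was called with edgeR's quasi-likelihood test where the Benjamini-Hochberg adjusted p was below 0.05 and its mean moved by more than 1.5 times. NCSTN fell, PSENEN and PSEN2 rose, and APH1A and APH1B did not pass the test. These 3 calls among 5 genes stand beside 24.6% of all genes tested. In 1 direction each, 1 of 5 was lower beside 13.6% of all genes and 2 of 5 were higher beside 11.1%. The groups did not overlap in CPM for the same 3 of 5 genes, beside 51.2% of all genes. The median log2 fold change was 0.18 over the 5 subunit genes and -0.01 over all genes tested.

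**Figure D1:**
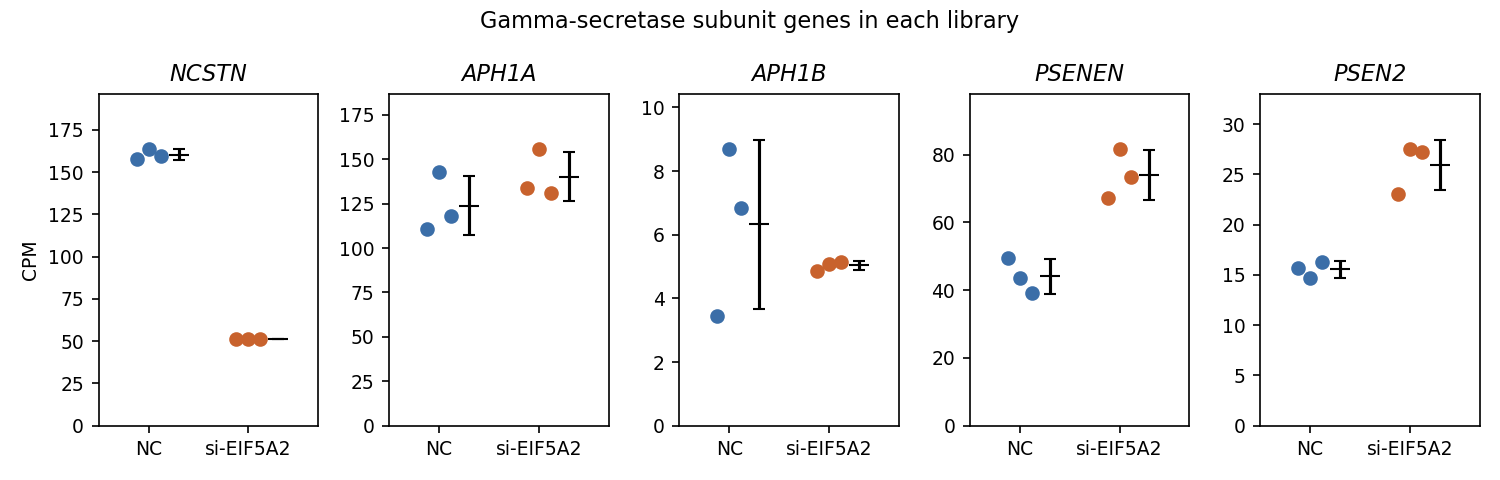
CPM of each subunit gene on a linear axis from 0, with 1 point per library (NC blue, si-EIF5A2 orange, replicates 1 to 3 from left to right) and the mean ± SD beside them. NCSTN was 51.4 CPM in si-EIF5A2 against 160 in NC, PSENEN and PSEN2 lay above all their NC points, and APH1B overlapped.

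NCSTN (ENSG00000162736, chr1:160343272-160358952, plus strand) encodes nicastrin, the large glycoprotein that holds the substrate's outer end at the entrance of the complex. It was measured at 157.7, 163.7 and 159.4 CPM in NC replicates 1 to 3 and at 51.4, 51.3 and 51.4 CPM in si-EIF5A2 replicates 1 to 3. All 3 si-EIF5A2 libraries lay far below all 3 NC libraries. The mean fell from 160 ± 3.13 to 51.4 ± 0.0492 CPM (SD, n = 3 each), leaving 32.0% of the control level. This was a log2 fold change of -1.64 (SE 0.066, 95% interval -1.80 to -1.49, adjusted p = 4.92e-06 with edgeR's quasi-likelihood test). In these bulk samples fewer cells with the transcript and less of it per cell cannot be told apart. The fall of NCSTN was the 850th largest among 16208 genes, so that 5.24% of the genes tested fell more. The spread of the si-EIF5A2 libraries, 0.0957% of their mean, was smaller than the 3.93% that counting error alone gives for the library with the fewest NCSTN fragments.

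PSENEN (ENSG00000205155, chr19:35745114-35747519, plus strand) encodes PEN-2, the smallest subunit, which is needed for the presenilin to be cut into its active form. Its levels were 49.5, 43.6 and 39.2 CPM in NC and 67.0, 81.7 and 73.3 CPM in si-EIF5A2. The lowest si-EIF5A2 library was above the highest NC library. The mean rose from 44.1 ± 5.13 to 74.0 ± 7.34 CPM, or 168% of NC (log2 fold change 0.75, SE 0.115, 95% interval 0.48 to 1.01, adjusted p = 0.00158 with edgeR's quasi-likelihood test).

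PSEN2 (ENSG00000143801, chr1:226870184-226896105, plus strand) encodes presenilin 2, a catalytic subunit of complexes that are enriched in late endosomes and lysosomes. Its levels were 15.7, 14.7 and 16.2 CPM in NC and 23.1, 27.5 and 27.2 CPM in si-EIF5A2. Again every si-EIF5A2 library was above every NC library. The mean rose from 15.5 ± 0.815 to 25.9 ± 2.48 CPM, or 167% of NC (log2 fold change 0.74, SE 0.111, 95% interval 0.481 to 0.996, adjusted p = 0.00139 with edgeR's quasi-likelihood test). The rises of PSENEN and PSEN2 were thus nearly of 1 size, and their intervals overlapped.

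APH1A (ENSG00000117362, chr1:150265399-150269580, minus strand) encodes the widely expressed APH-1 scaffold around which the complex begins to assemble. Its levels were 111, 142.9 and 118 CPM in NC and 134, 155.9 and 131 CPM in si-EIF5A2. Replicate 2 was the highest library in both groups, and the groups overlapped. The means were 124 ± 16.8 and 140 ± 13.6 CPM, with a log2 fold change of 0.18 (SE 0.116, 95% interval -0.09 to 0.45, adjusted p = 0.275 with edgeR's quasi-likelihood test). A change of the size seen in PSENEN or PSEN2 lay outside this interval.

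APH1B (ENSG00000138613, chr15:63276018-63309126, plus strand) encodes the alternative APH-1 scaffold and carries the run of 15 bases printed above. Its levels were 3.44, 8.70 and 6.83 CPM in NC and 4.87, 5.08 and 5.15 CPM in si-EIF5A2. The si-EIF5A2 libraries were close together and lay between NC replicate 1, the lowest of all 6, and the other NC libraries. The means were 6.32 ± 2.66 and 5.03 ± 0.145 CPM, with a log2 fold change of -0.33 (SE 0.311, 95% interval -1.05 to 0.40, adjusted p = 0.466 with edgeR's quasi-likelihood test). Whether APH1B was called depended on 1 control library. Without NC replicate 1 the log2 fold change was -0.63 (adjusted p = 0.0337, called), whereas without NC replicate 2 it was -0.025 (adjusted p = 0.962, edgeR in both cases). The interval over all libraries reached from a fall of 1.05 on the log2 scale to a rise, so these data did not settle the response of APH1B.

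**Figure D2:**
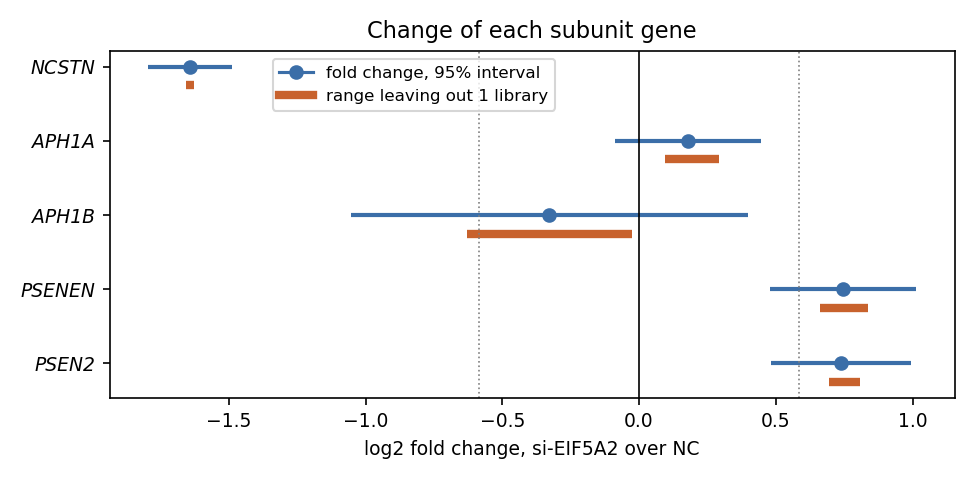
Log2 fold change of each subunit gene (horizontal axis, si-EIF5A2 over NC), with the 95% interval as a blue line, the range over fits that each leave out 1 library as an orange bar, and dotted lines at a fold change of 1.5. The intervals of NCSTN, PSENEN and PSEN2 stay clear of 0, whereas that of APH1B runs from -1.05 to 0.40 and its orange bar from -0.63 to -0.025.

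Depth differed between the genes. Low counts of the table lie at steps of 3.81, and dividing by this step gives 64.8 to 162 fragments per library for APH1B, 200.5 to 377 for PSEN2, 484 to 1119 for PSENEN, 647 to 3044 for NCSTN and 1456 to 2657 for APH1A. For the library with the fewest APH1B fragments the counting error is 12.4%, and the spread of the NC libraries was 42.2% of their mean. Such errors cover counting only. The 5 genes whose pattern over the 6 libraries was closest to that of APH1B were HDHD2, PDPN, LARP4, RPE and SCMH1. Their root mean square differences from the centred log2 CPM of APH1B were 0.122, 0.136, 0.153, 0.168 and 0.172 among 8844 genes that averaged 10 CPM or more. PDPN, for example, was 24.6 CPM in NC replicate 1, 59.2 and 60.9 CPM in the other NC libraries, and 39.3 to 42.6 CPM in si-EIF5A2. As the 5 genes were selected for likeness to APH1B over these same libraries, their low value in NC replicate 1 restates the selection and supports nothing further.

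Levels were compared between the subunit genes per kilobase of exon, with all exons of a gene merged. In NC, NCSTN stood at 38.4 ± 0.749, APH1A at 35.7 ± 4.83, PSENEN at 23.9 ± 2.78, PSEN2 at 4.14 ± 0.217 and APH1B at 1.15 ± 0.485 CPM per kb. NCSTN and APH1A did not differ beyond their spread, since APH1A was the higher of the pair in NC replicate 2. In si-EIF5A2 the levels were 40.4 ± 3.92 for APH1A, 40.1 ± 3.98 for PSENEN, 12.3 ± 0.0118 for NCSTN, 6.91 ± 0.660 for PSEN2 and 0.916 ± 0.0264 CPM per kb for APH1B. Here APH1A and PSENEN did not differ beyond their spread by merged exons, with PSENEN first in replicate 3. Merged exons span 3473 bases in APH1A and 1845 in PSENEN, whereas their longest transcripts have 2353 and 1661 bases. The order of this pair therefore depends on the length used. NCSTN had moved to the third place in every library. PSEN2 was the fourth and APH1B the lowest in all 6 libraries.

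**Figure D3:**
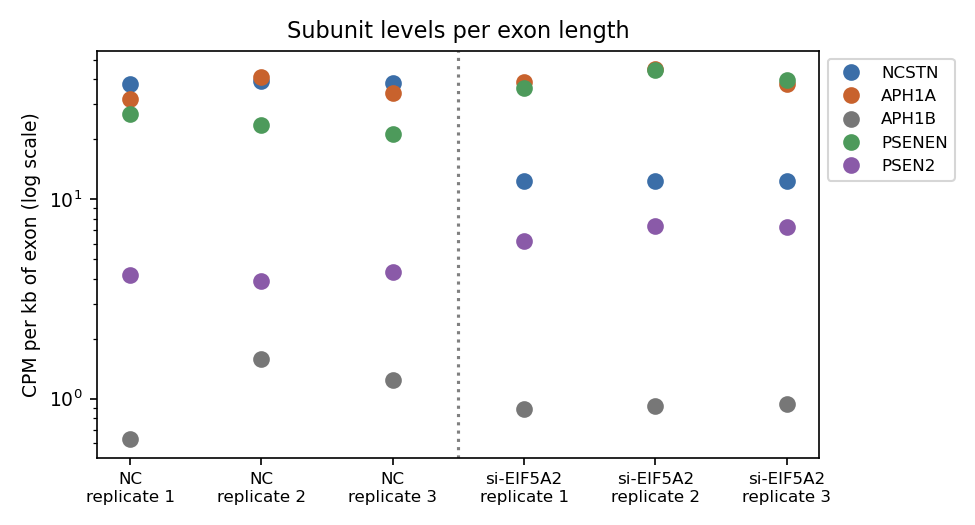
Level of each subunit gene in CPM per kb of merged exons (vertical axis, log scale) in the 6 libraries, with 1 colour per gene. NCSTN drops from about the level of APH1A to below PSENEN and APH1A in all 3 si-EIF5A2 libraries, and APH1B is lowest throughout.

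The proportions among the subunit genes shifted accordingly. The level of NCSTN relative to APH1A per kb was 1.18, 0.953 and 1.12 in NC and 0.319, 0.274 and 0.326 in si-EIF5A2. PSENEN relative to NCSTN was 0.710, 0.603 and 0.557 in NC and 2.95, 3.60 and 3.23 in si-EIF5A2. Neither ratio overlapped between the groups. The summed level of the 5 genes per kb did, at 99.0 to 109.5 CPM per kb in NC and 94.3 to 109.7 in si-EIF5A2. Without division by length the sum did not overlap, at 337 to 374 CPM in NC and 280 to 321 CPM in si-EIF5A2. APH1B supplied 1.92%, 3.70% and 3.53% of the APH-1 transcripts per length in NC and 2.25%, 2.02% and 2.43% in si-EIF5A2. The difference of -0.822 percentage points was within the spread of the NC libraries (2-sided exact permutation test, p = 0.40), and 3 against 3 libraries cannot give a p below 0.10. These are transcript levels, and the amount of assembled complex was not measured.

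Some subunit genes share exon bases with other genes, and the sources used here do not say whether the libraries kept the strand. COPA, a coat protein gene on the opposite strand, overlaps 129 exon bases of NCSTN (3.09%) and was called higher (324 ± 53.1 to 595 ± 77.1 CPM, log2 fold change 0.88, adjusted p = 0.00245 with edgeR), the direction opposite to NCSTN. PSENEN shares 332 bases with U2AF1L4 on the opposite strand (18.0%), which had 2.38 to 3.29 CPM on average and was not called. On the opposite strand it also shares 425 bases with ENSG00000267439 (23.0%) and 173 with ENSG00000267120 (9.38%), both at most 1.10 CPM in any library. It shares 285 bases on its own strand with ENSG00000188223 (15.4%), which had 122 and 142 counts in NC replicates 1 and 3 and none in the other 4 libraries. With these counts added to PSENEN, its log2 fold change was 0.70 (adjusted p = 0.00182) and it was still called. APH1A shares 490 bases with C1orf54 (14.1%), at 0.228 CPM in NC, and APH1B and PSEN2 share no exon base with another annotated gene. These overlapping genes were chosen for their position.

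Proteins that retain, assemble or bind the complex are encoded by 11 listed genes, all of them tested. Of these 2 rose, 0 fell and 9 were not called, so that 18.2% were called beside 24.6% of all genes tested. An unadjusted p under 0.05 was reached by 6 of the 11, and DESeq2 called 2. Their median log2 fold change was 0.25. TMED2, a p24 cargo receptor of early secretory transport, rose from 173 ± 10.2 to 346 ± 14.5 CPM (log2 fold change 1.001, adjusted p = 4.27e-05 with edgeR). GSAP, named for activating gamma-secretase, rose from 3.26 ± 0.413 to 6.49 ± 0.318 CPM (log2 fold change 0.99, adjusted p = 0.00239). It lies below the 5 CPM set for naming genes and was added after its values were seen. RER1, which retains unassembled subunits in the early secretory pathway, was 124 ± 20.1 and 173 ± 8.31 CPM, with a log2 fold change of 0.48 that missed the fold limit (adjusted p = 0.0144). TMED10, the partner of TMED2, was 246 ± 53.5 and 183 ± 40.9 CPM (adjusted p = 0.185), and its groups overlapped.

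Most substrates must first lose their outer part to a sheddase. Of 17 listed sheddases, activators and inhibitors, all tested, 3 rose and 2 fell (29.4% called, beside 24.6% of all genes), and the median log2 fold change was 0.06. Without si-EIF5A2 replicate 3 the calls numbered 3 in all. BACE1, the beta-secretase, rose from 16.8 ± 0.759 to 30.5 ± 0.291 CPM (log2 fold change 0.86, adjusted p = 2.20e-04 with edgeR). Its paralog BACE2 fell from 60.2 ± 4.11 to 25.8 ± 4.73 CPM (log2 fold change -1.22, adjusted p = 3.35e-04). ADAM9, a metalloprotease, and TIMP1, a metalloprotease inhibitor, rose with log2 fold changes of 0.74 and 0.59. TIMP3, the inhibitor of ADAM17, fell from 32.6 ± 2.68 to 13.4 ± 2.54 CPM (log2 fold change -1.28). The main Notch sheddases did not reach the call. ADAM10 was 52.7 ± 2.37 and 66.4 ± 6.49 CPM (log2 fold change 0.33, adjusted p = 0.0269, under the fold limit), and ADAM17 was 46.2 ± 12.6 and 61.8 ± 3.85 CPM (adjusted p = 0.121).

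Of 44 listed substrates 36 were tested, of which 8 rose and 6 fell (38.9% called, beside 24.6% of all genes). By direction 22.2% were higher, beside 11.1% of all genes, and 16.7% lower, beside 13.6%. The median log2 fold change was 0.16. L1CAM, a neural adhesion molecule, rose from 7.78 ± 0.845 to 20.2 ± 1.45 CPM (log2 fold change 1.38, adjusted p = 1.31e-04 with edgeR). DNER, a transmembrane protein with EGF repeats, rose from 24.9 ± 0.789 to 58.9 ± 0.83 CPM, and IFNAR2, an interferon receptor chain, from 10.7 ± 2.83 to 23.9 ± 2.41 CPM. SORT1, the sorting receptor sortilin, fell from 51.9 ± 2.43 to 19.4 ± 1.21 CPM (log2 fold change -1.42, adjusted p = 2.25e-05). SDC3, a cell surface proteoglycan, fell from 87.2 ± 2.30 to 54.3 ± 0.894 CPM.

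Among the Notch receptors, NOTCH1 fell from 59.3 ± 4.74 to 28.4 ± 3.09 CPM (log2 fold change -1.06, adjusted p = 2.20e-04 with edgeR), NOTCH2 was 237 ± 1.80 and 209 ± 23.8 CPM (adjusted p = 0.163), and NOTCH3 was too low to test at 0.0747 CPM in NC. NOTCH4 fell from 3.51 ± 1.24 to 0.199 ± 0.0535 CPM (log2 fold change -4.13, adjusted p = 1.84e-04). Of 28 listed ligands, transducers and targets 22 were tested, 2 rose (NUMBL and MAML2) and 6 fell (36.4% called, beside 24.6% of all genes), and the median log2 fold change was -0.17. By direction 27.3% were lower, beside 13.6% of all genes, and 9.09% higher, beside 11.1%. Without NC replicate 1, or without si-EIF5A2 replicate 2 or 3, 5 of them were called. HES1, a Notch target, fell by 1.71 on the log2 scale, JAG1, a ligand, by 0.62, and POFUT1, which fucosylates the receptor, by 1.05. LFNG, a glycosyltransferase that extends this fucose, fell from 8.23 ± 1.04 to 0.471 ± 0.0885 CPM (log2 fold change -4.12, adjusted p = 1.18e-05 with edgeR), the largest fall called in this list. The targets NRARP and HEYL were called lower, by 1.35 and 0.97 on the log2 scale (adjusted p 0.0165 and 0.0352 with edgeR). RBPJ, the DNA-binding partner of the Notch intracellular domain, and the target HEY1 were not called (adjusted p 0.606 and 0.491). Nor were the targets HES4 and HEY2 (adjusted p 0.380 and 0.918). RBPJ was 45.6, 42.0 and 13.9 CPM in NC replicates 1 to 3 and 45.0, 41.0 and 43.1 CPM in si-EIF5A2. Its 95% interval ran from -0.78 to 1.47, so its response was not settled. NOTCH4, LFNG, NRARP, HEYL, HES4 and HEY2 average below 5 CPM and were added after their values were seen.

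The family of proteases most like the presenilins in sequence, the signal peptide peptidases, served as a further comparison. Of HM13, SPPL2A, SPPL2B and SPPL3, edgeR called 0 of 4, beside 24.6% of all genes tested. An unadjusted p under 0.05 was reached by 0, DESeq2 called 0, and SPPL2C had no count in any library. HM13, the most abundant by CPM, was 394 ± 38.3 and 353 ± 30.4 CPM. The groups of all 4 genes overlapped, while 51.2% of all genes tested did not overlap. Their log2 fold changes ranged from -0.16 to 0.37.

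**Figure D4:**
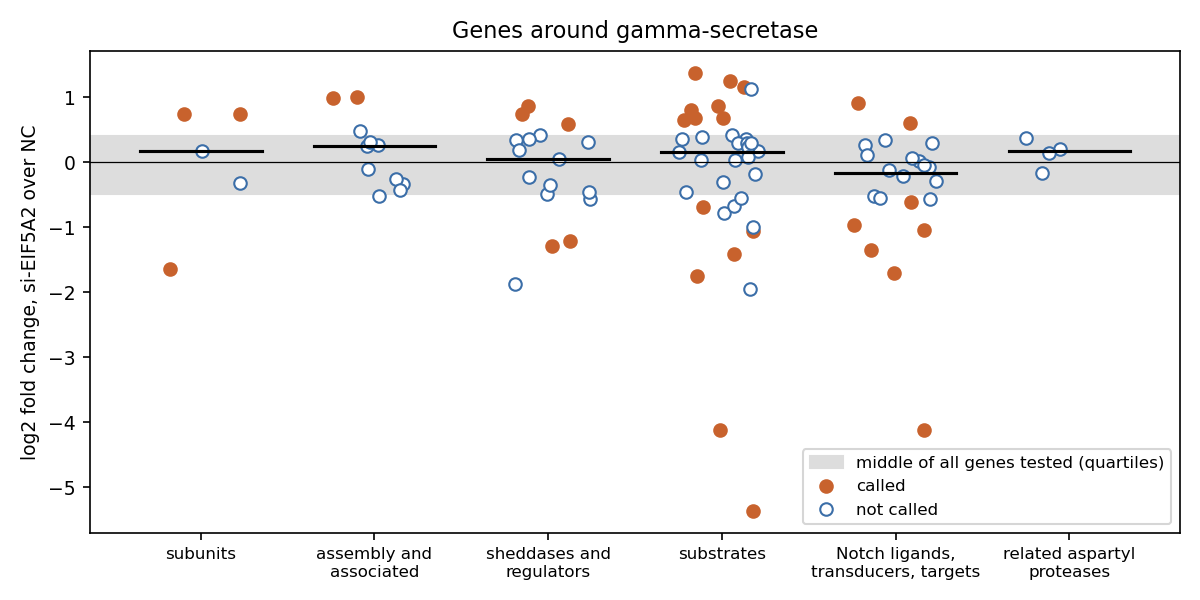
Log2 fold change (vertical axis, si-EIF5A2 over NC) of every tested gene of the subunit, assembly, sheddase, substrate, Notch and aspartyl protease lists, with filled points for called genes, a black line at each list's median and a grey band from -0.50 to 0.41 for the quartiles of all genes tested. All 5 list medians beside the subunits lie inside the band. The subunits, the substrates, the sheddases and the Notch list hold called genes on both sides of it.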

How the data were processed

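RNA-seq of 6 SKOV3 samples, 3 NC and 3 si-EIF5A2, was used, grouped by the sample labels. The authors read mRNA libraries from both fragment ends, used StringTie and ballgown to quantify transcripts, and deposited 1 table of estimated counts per gene, in whole numbers and not normalized. The submitters' processing notes name Bowtie 0.12.2 and the mouse builds mm8 and mm9, although the rows carry human identifiers. The annotation release is not given in the sources used here. StringTie shares fragments between overlapping transcripts, so counts of genes with shared exons are less certain. All 6 columns carried a sample name, with 0 left over.

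The test had been planned for counts and was run on the estimated counts, which were already whole. edgeR 4.0.16 (R 4.3.3) was used with filterByExpr, TMM normalization and robust quasi-likelihood fits, with Benjamini-Hochberg adjustment over 16208 genes. Positions, exon lengths and transcripts came from GENCODE 29 (GRCh38), which held 58552 of the 58825 identifiers. TMM factors lay between 0.985 and 1.01. The fits were also run on simulated counts, which lack the steps of 3.81 seen in the low counts here. That run therefore does not check the test on counts of this kind. The siRNA letters were read from a page image. The complement of the antisense strand matched EIF5A2 in full, the sense strand as printed was 1 base shorter than the antisense strand, and the complement was used in its place.

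Named genes were the 5 subunits, EIF5A2, 8 Notch pathway genes always named (NOTCH1, NOTCH2, NOTCH3, ADAM10, ADAM17, RBPJ, HES1 and HEY1), from each list up to 3 called genes per direction with the largest change and a mean of at least 5 CPM, and the 5 genes most like APH1B. The members and lists were chosen with earlier results of these data known. The 5 members do not cover every gene that can supply a subunit of the complex. The alternatives were RLE, upper-quartile or no composition normalization, no filter, at least 10 counts in every library, DESeq2 1.42.0, counts divided by their step, a replicate block, other thresholds, and leaving out each library in turn. Adding the overlapping gene to PSENEN was chosen after the data had been seen.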

Additional observations from a re-analysis of the deposited data

How the results depend on the processing

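NCSTN, PSEN2 and PSENEN kept their direction and call in all 14 other settings, with log2 fold changes of -1.67 to -1.63, 0.69 to 0.81 and 0.66 to 0.84. APH1A stayed uncalled in all 14 (0.10 to 0.29). APH1B stayed uncalled in 13 of 14, and its log2 fold change over fits that leave out 1 library ranged from -0.63, where it was called, to -0.025. With the threshold of the study's methods (an unadjusted p below 0.05 with a ratio of means above 2 or below 0.5) calls fell to 2370 over all genes, 1 subunit (NCSTN), 8 substrates, 3 sheddases, 1 assembly gene and 4 Notch genes. With no fold limit, calls rose to 5974 of the 16208 genes tested, with 8 sheddases and 6 assembly genes called. Leaving out 1 library gave 3 to 4 subunits, 3 to 7 sheddases (3 without si-EIF5A2 replicate 3) and 5 to 7 Notch genes (5 without NC replicate 1, si-EIF5A2 replicate 2 or si-EIF5A2 replicate 3). The cause was not tested. DESeq2 called 4312 genes, of which 3967 were among the 3992 of edgeR.

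Samples with the same replicate number did not deviate together (correlations -0.024, 0.005 and -0.003), so the numbers were not taken as pairs. A replicate block gave 3731 calls, changed no call among the subunits, and left the log2 fold changes of NCSTN at -1.64 and of APH1B at -0.23. For the APH1B share it gave an exact permutation p of 0.5, with 0.25 the smallest possible for 3 pairs.

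Depth limits APH1B most, at 64.8 fragments in its lowest library.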
